A study of Mus musculus with 9 samples.

Results

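Histone methylation enzyme genes encode the methyltransferases that place methyl groups on lysines of the histone tails and core, and the demethylases that take them off. They were selected by name as the protein-coding genes of the autosomes and the X chromosome in the Kdm1 to Kdm8, Kmt2, Kmt5, Setd1 to Setd9 and Suv39h families, together with Ehmt1, Ehmt2, Ezh1, Ezh2, Nsd1 to Nsd3 and Dot1l. The rule found 43 genes among 21631. The rule uses names alone, though the set was proposed with earlier results of these data known. The question was which of 8 histone marks lay at these genes in lung endothelial cells.

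The series profiled lung endothelial cells of wild-type mice by ACT-seq. In this assay an antibody against a histone mark recruits a Protein A/G fusion of the transposase Tn5 to nuclei, and the transposase cuts the DNA beside the mark and inserts sequencing adaptors. The marks were H3K4me3 and acetylation of histone H3 (H3K27ac, H3K9ac, H3K23ac, H3K18ac and H3K14ac), of H4 (H4K8ac) and of H2A (H2AK5ac), with an IgG antibody as background. There was 1 library for each mark and for IgG, which leaves the values without a replicate error and the marks without a test between them. No strain, age or treatment of the mice is stated in the labels used here, nor whether animals were pooled. Since nuclei were profiled in bulk, a mark on fewer cells and less of a mark per cell cannot be told apart.

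In the deposited table of counts the smallest library, IgG, held 365999 reads and the largest, H3K14ac, 10044130. Each region identifier of this table can hold several unrelated regions, because 8 peak lists numbered separately had been joined under the same names. The lists were therefore separated again by genome order. Each is named after the library with the highest read density in its unshared bases, which led the second library by 1.98 times (H3K27ac) to 23.8 times (H2AK5ac). The second library was IgG for H3K27ac, and also for H3K14ac, where the lead was 2.24 times. IgG was second for H3K18ac, H3K4me3 and H3K9ac too, with leads of 5.15 times or more. The name is a measured property and not a record of how the list was called. Markers set beside the labelled cell type gave a median of 8 lists at the ends of 20 endothelial identity genes, of which 13 had all 8 and Cldn5 had none. The medians were 3 for 15 lung epithelium genes, 3 for 15 mesenchyme genes and 2 for 15 leukocyte genes. Some markers of other cells carried all 8 lists, namely Sftpc, Krt18 and Muc1 of epithelium and Spi1 of leukocytes. The part of such cells in the values below was not tested.

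As background, lysine methylation on histones is written by SET domain enzymes and by DOT1L, which has a different fold, and it is removed by flavin-dependent LSD1 enzymes and by the larger JmjC family, which uses iron and oxygen. H3K4me3 marks active and poised promoters, H3K27 and H3K9 methylation are typical of silenced chromatin, and H3K36 methylation lies over transcribed genes. In endothelial cells these enzymes are studied for their part in keeping vessel identity and in responses to oxygen and inflammation.

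The promoters that carry the contrasts of this set are shown first. The RefSeq table of promoters matched 32 of the 43 genes by symbol, with 44 listed transcription starts. Each sequence covers 300 bases on the transcribed strand in GRCm38.p6, 5′ to 3′, with the start at base 251. Capitals mark CpG dinucleotides. The first 5 sequences pair CpG-poor listed starts that had no H3K4me3 peak within 2 kb with a CpG-rich start of the same gene where the table gives one. Kdm4c encodes a demethylase of H3K9 and H3K36. Its outer start lies at chr4:74242247-74242546 on the plus strand and holds 0 CpG, and its inner start at chr4:74251629-74251928 holds 28. Kdm3a encodes an H3K9 demethylase. Its outer start at chr6:71632868-71633167 on the minus strand holds 24 CpG and its innermost start at chr6:71609090-71609389 holds 0. Setd5 encodes a SET domain protein. Its only listed start, at chr6:113104685-113104984 on the plus strand, holds 1 CpG.
Kdm4c outer start: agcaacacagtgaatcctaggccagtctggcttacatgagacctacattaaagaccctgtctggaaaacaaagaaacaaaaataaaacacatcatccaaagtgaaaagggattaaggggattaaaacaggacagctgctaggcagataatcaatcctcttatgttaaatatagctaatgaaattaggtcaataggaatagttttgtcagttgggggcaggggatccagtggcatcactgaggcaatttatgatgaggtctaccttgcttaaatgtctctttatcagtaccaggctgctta
Kdm4c inner start: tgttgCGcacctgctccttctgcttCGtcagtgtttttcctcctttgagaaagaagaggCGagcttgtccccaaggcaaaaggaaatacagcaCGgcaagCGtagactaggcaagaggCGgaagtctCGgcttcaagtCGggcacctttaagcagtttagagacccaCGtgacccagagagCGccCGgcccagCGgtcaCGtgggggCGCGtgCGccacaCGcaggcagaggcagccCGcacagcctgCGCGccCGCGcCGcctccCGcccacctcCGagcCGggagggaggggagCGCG
Kdm3a outer start: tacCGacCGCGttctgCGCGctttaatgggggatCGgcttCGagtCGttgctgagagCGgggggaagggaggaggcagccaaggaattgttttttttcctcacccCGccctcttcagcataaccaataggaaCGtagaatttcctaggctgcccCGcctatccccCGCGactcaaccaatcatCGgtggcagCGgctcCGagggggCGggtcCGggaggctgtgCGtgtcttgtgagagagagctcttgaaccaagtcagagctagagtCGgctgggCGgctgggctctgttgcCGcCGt
Kdm3a inner start: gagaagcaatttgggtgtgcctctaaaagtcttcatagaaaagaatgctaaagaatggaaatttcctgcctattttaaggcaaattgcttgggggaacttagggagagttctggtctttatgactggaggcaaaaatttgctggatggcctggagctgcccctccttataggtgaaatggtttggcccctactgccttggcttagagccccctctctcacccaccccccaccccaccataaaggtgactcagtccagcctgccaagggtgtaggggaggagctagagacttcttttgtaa
Setd5 listed start: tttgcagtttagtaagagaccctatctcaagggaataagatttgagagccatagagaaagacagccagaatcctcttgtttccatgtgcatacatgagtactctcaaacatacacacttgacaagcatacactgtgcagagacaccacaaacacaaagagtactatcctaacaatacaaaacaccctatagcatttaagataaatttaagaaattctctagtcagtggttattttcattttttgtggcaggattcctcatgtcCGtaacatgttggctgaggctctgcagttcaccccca

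The next 3 sequences are CpG-rich. Kdm2b encodes a JmjC demethylase with a zinc finger that binds unmethylated CpG. Its outer start at chr5:122989050-122989349 on the minus strand holds 28 CpG, and its innermost start at chr5:122900301-122900600, 88.9 kb inside the gene, holds 49. Kdm7a encodes a JmjC demethylase with a PHD finger that binds H3K4me3. Its start at chr6:39206724-39207023 on the minus strand holds 65 CpG, the highest number among the 44 starts.
Kdm2b outer start: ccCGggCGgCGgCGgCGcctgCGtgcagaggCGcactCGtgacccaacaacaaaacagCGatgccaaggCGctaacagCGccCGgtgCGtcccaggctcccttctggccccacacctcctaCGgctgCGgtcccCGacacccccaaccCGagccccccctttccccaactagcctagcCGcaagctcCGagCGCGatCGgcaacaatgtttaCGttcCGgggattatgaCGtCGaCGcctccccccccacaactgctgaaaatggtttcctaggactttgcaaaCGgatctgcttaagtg
Kdm2b inner start: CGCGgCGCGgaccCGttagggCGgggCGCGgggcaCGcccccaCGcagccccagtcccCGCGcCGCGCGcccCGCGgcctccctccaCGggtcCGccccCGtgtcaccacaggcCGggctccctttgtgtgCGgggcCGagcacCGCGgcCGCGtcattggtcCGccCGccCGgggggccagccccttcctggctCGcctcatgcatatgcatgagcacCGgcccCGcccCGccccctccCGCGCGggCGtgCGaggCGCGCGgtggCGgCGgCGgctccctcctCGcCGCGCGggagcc
Kdm7a start: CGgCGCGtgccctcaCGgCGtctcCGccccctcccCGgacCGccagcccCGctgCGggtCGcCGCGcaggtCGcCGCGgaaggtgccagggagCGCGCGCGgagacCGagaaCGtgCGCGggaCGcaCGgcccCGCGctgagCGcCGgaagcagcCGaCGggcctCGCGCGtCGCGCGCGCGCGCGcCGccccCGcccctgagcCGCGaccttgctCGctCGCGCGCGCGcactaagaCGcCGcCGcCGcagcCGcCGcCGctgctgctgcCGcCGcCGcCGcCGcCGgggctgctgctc

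Peaks of most lists lay at the ends of nearly every gene of the set. Counting any peak base within 2 kb of either annotated gene end, 42 of 43 genes had an H3K4me3 peak, against 62.2% of all 21631 genes. The same 42 of 43 held for H3K9ac (50.9% of all genes), H3K27ac (63.9%), H4K8ac (67.6%) and H3K18ac (69.2%). H3K23ac peaks lay at all 43 genes (58.1%) and H3K14ac peaks at 40 (85.9%). H2AK5ac peaks lay at 29 genes, or 67.4%, against 40.2% of all genes. The gene without H3K4me3, H3K9ac, H3K27ac, H4K8ac and H3K18ac peaks at its ends was in each case Kdm4c.

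**Figure D1:**
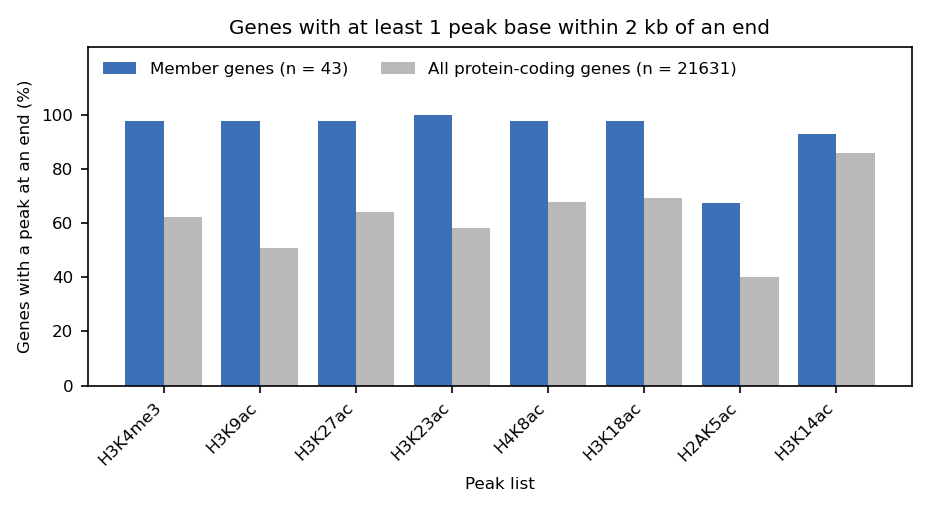
Bars give the percentage of genes with at least 1 peak base within 2 kb of an annotated gene end, for the 43 histone methylation enzyme genes and for all 21631 protein-coding genes, in each of 8 peak lists (x axis). The enzyme genes stand at 97.7% or 100% for 6 lists, at 93% for H3K14ac and at 67.4% for H2AK5ac.

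The median number of lists per gene was 8, against 6 over all genes. All 8 lists were present at 29 of the 43 genes (31.5% of all genes). With peaks wider than the minimum width of their list alone, 23.3% of the set and 10.1% of all genes had all 8, and with 1 kb windows 44.2% and 26.1%. Another 11 genes had 7 lists, lacking H2AK5ac in every case: Kdm3b, Kdm5a, Kdm6a, Kdm7a, Kmt2a, Setd1b, Ehmt2, Suv39h1, Kmt5b, Setd6 and Setd7. Kdm2b and Kdm5b had 6 lists, lacking H2AK5ac and H3K14ac, and Kdm4c had 1. H2AK5ac, which was also the list with the lowest share over all genes, was thus the only list missing at 11 of the 14 genes below 8 lists.

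Covered bases give a size to these counts. Each list has its own minimum peak width, from 102 bp for H4K8ac to 206 bp for H3K23ac, and the lists were called separately, so base numbers rank genes within a list and do not measure one mark against another. The median at the ends of the set was 1392 bp for H3K4me3 peaks, against 564 bp over all genes. For H3K9ac peaks it was 1094 bp against 204 bp, and for H3K23ac peaks 1083 bp against 206 bp. The acetylation lists H3K27ac (805 bp against 338 bp), H4K8ac (807 bp against 356 bp), H3K18ac (802 bp against 343 bp) and H3K14ac (757 bp against 450 bp) had higher medians in the set too. For H2AK5ac the median was 129 bp, the width of a peak of minimum size, against 0 bp. In 10 of the 29 genes with H2AK5ac the list contributed exactly 1 peak of this width.

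**Figure D2:**
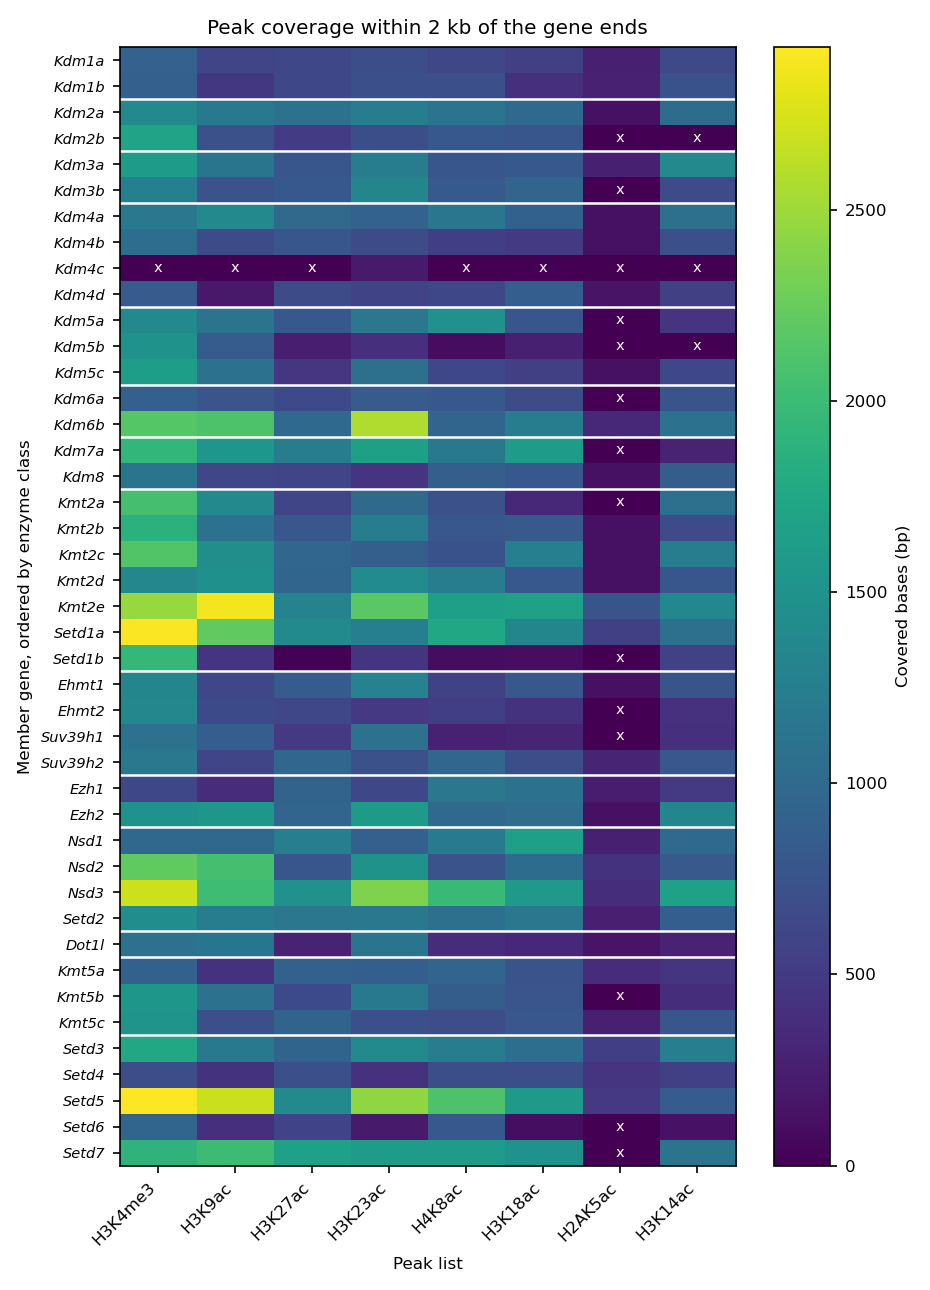
Colour gives the bases covered by peaks within 2 kb of the gene ends, from 0 to 2926 bp, for 43 genes (rows, grouped by enzyme class between white lines) in 8 peak lists (columns), and an x marks 0 bp. Kdm4c is empty outside H3K23ac, the crosses gather in the H2AK5ac column, and Setd5, Setd1a, Kmt2e and Nsd3 stand out in the H3K4me3 column.

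H3K4 methyltransferases of the KMT2 and SET1 families form COMPASS complexes and write H3K4 methylation. As a class they had the highest median of H3K4me3 coverage among the 14 classes, 2058 bp over 7 genes. All 7 had 7 or 8 lists. Kmt2e, a family member better known for reading than for writing methylation, had the most covered bases of the class summed over the 8 lists. Setd1a had more of H3K4me3, H3K27ac and H4K8ac. The ends of Kmt2e held 2471 bp of H3K4me3, 2880 bp of H3K9ac, 1307 bp of H3K27ac and 2173 bp of H3K23ac peaks. H4K8ac peaks covered 1652 bp there, H3K18ac 1675 bp, H2AK5ac 762 bp and H3K14ac 1365 bp. Only 4 of the 21631 genes had more H3K9ac coverage at their ends, since Kmt2e ranked 5th in that list, and it ranked 130th for H3K4me3 and 159th for H2AK5ac. Of its H3K9ac bases 408 lay at its upper end, where Srpk2 is also within 2 kb.

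Setd1a, the catalytic subunit of a SET1 complex, had 2904 bp of H3K4me3 peaks at its ends, which ranked 28th of all genes. Of these bases 1138 lay at its 3′ end, where the neighbouring gene Hsd3b7 is also within 2 kb. At the 5′ end of Setd1a 1766 bp remained.

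Setd1b, the paralogue of Setd1a, had the fewest covered bases of the class summed over the 8 lists. H3K4me3 peaks covered 1944 bp at its ends, close to the class median, and H3K14ac peaks 572 bp. H3K9ac covered 443 bp, H3K23ac 444 bp, H4K8ac 102 bp, H3K18ac 105 bp, H3K27ac 18 bp and H2AK5ac 0 bp. Much of its acetylation lay inside the gene. From 2 kb inside both ends, peaks of all 8 lists were present, with 994 bp of H3K4me3, 949 bp of H3K9ac, 1908 bp of H3K23ac and 906 bp of H2AK5ac peaks. Its widest H3K9ac peak, 949 bp at chr5:123149672-123150620, contained its widest H3K27ac peak, 320 bp at chr5:123150119-123150438. They began 7.63 and 8.08 kb from the gene end with the lower coordinate. Rhof is also within 2 kb of that end of Setd1b.

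In bases summed over the 8 lists, the other members of the class lay between Kmt2e and Setd1b. In H3K4me3 alone they did not, since Kmt2b and Kmt2d had fewer bases than Setd1b. Kmt2a, the founding MLL gene, had 2058 bp of H3K4me3 peaks but 330 bp of H3K18ac and no H2AK5ac. Kmt2b and Kmt2c had 1867 and 2126 bp of H3K4me3 peaks. Kmt2c and Kmt2d encode the writers of H3K4 methylation at enhancers. At Kmt2d, H3K4me3 peaks covered 461 bp at the annotated 5′ end and 895 bp at the 3′ end, which is shared with Prkag1. The listed start of Kmt2d lies 2.87 kb inside the annotated gene, and 2491 bp of H3K4me3 peaks covered the 2 kb either side of it. Its widest H3K18ac peak, 1109 bp at chr15:98871265-98872373, lay upstream of this start and was the widest of that list over the span of any gene of the set.

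H3K4 demethylases oppose these writers. Kdm1a and Kdm1b, the flavin-dependent LSD1 family, had all 8 lists with modest coverage. Kdm1a had 925 bp of H3K4me3, 617 bp of H3K9ac, 626 bp of H3K27ac and 687 bp of H3K23ac peaks, with 623 bp of H4K8ac, 549 bp of H3K18ac, 258 bp of H2AK5ac and 650 bp of H3K14ac. Kdm1b had 896 bp of H3K4me3, 469 bp of H3K9ac, 638 bp of H3K27ac and 712 bp of H3K23ac peaks, with 710 bp of H4K8ac, 399 bp of H3K18ac, 271 bp of H2AK5ac and 737 bp of H3K14ac. Both lay below the set's median of 1392 bp in H3K4me3 coverage. Their ranks among all genes for H3K4me3 were 7706 and 8032.

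The JmjC demethylases of the KDM5 family remove H3K4me3. Kdm5b had 1507 bp of H3K4me3 and 853 bp of H3K9ac peaks at its ends but little else, with 251 bp of H3K27ac, 410 bp of H3K23ac, 102 bp of H4K8ac and 252 bp of H3K18ac peaks and none of H2AK5ac or H3K14ac. It ranked 2365th for H3K4me3 and 11735th for H3K27ac. Kdm5a, which was first found as a partner of the retinoblastoma protein, showed no such contrast. H3K4me3 peaks covered 1392 bp at its ends, H3K9ac 1123 bp, H3K27ac 808 bp and H3K23ac 1159 bp. H4K8ac peaks covered 1478 bp there, H3K18ac 787 bp, H3K14ac 435 bp and H2AK5ac none. The X-linked Kdm5c had 1639 bp of H3K4me3 and 467 bp of H3K27ac peaks, and its 129 bp of H2AK5ac lay at the 3′ end.

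H3K9 methyltransferases had a class median of 1258 bp of H3K4me3 peaks over 4 genes. Ehmt1 and Ehmt2 encode GLP and G9a, which work as a pair on euchromatic H3K9. At Ehmt1, H3K4me3 covered 1341 bp, H3K9ac 640 bp, H3K27ac 846 bp, H3K23ac 1295 bp, H4K8ac 575 bp, H3K18ac 796 bp, H2AK5ac 129 bp and H3K14ac 757 bp. Its partner Ehmt2 had about as much H3K4me3, 1351 bp, and less of most acetylations. At Ehmt2, H3K9ac covered 656 bp, H3K27ac 625 bp, H3K23ac 490 bp, H4K8ac 540 bp, H3K18ac 428 bp, H3K14ac 414 bp and H2AK5ac 0 bp. Suv39h1 and Suv39h2 encode the writers of H3K9 methylation in constitutive heterochromatin. The X-linked Suv39h1 had 306 bp of H3K18ac and 266 bp of H4K8ac peaks, and the autosomal Suv39h2 had 708 and 963 bp.

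H3K9 demethylases came from the KDM3 and KDM4 families. Kdm3a, an H3K9 demethylase induced by low oxygen, had all 8 lists, with 1617 bp of H3K4me3, 1140 bp of H3K9ac, 781 bp of H3K27ac, 1227 bp of H3K23ac, 786 bp of H4K8ac, 807 bp of H3K18ac, 258 bp of H2AK5ac and 1379 bp of H3K14ac peaks. Its rank for H3K14ac coverage, 509th of 21631 genes, was its highest in any list. Kdm3b, its paralogue, had 1266 bp of H3K4me3, 746 bp of H3K9ac, 805 bp of H3K27ac, 1326 bp of H3K23ac, 825 bp of H4K8ac, 955 bp of H3K18ac, 683 bp of H3K14ac and 0 bp of H2AK5ac peaks.

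Kdm4a led the KDM4 family with 1170 bp of H3K4me3, 1377 bp of H3K9ac, 1015 bp of H3K27ac and 925 bp of H3K23ac peaks, and with 1150 bp of H4K8ac, 913 bp of H3K18ac, 129 bp of H2AK5ac and 1078 bp of H3K14ac. Of the H3K4me3 bases 303 lay at the 3′ end of Kdm4a, where St3gal3 is within 2 kb. Kdm4b and Kdm4d also had all 8 lists, with 1058 and 840 bp of H3K4me3 peaks.

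Kdm4c was the exception of the set. Its annotated ends held 206 bp of H3K23ac, the width of a minimum-size peak, at the 3′ end, and no base of the other 7 lists. The gene spans 163 kb on chromosome 4, and its 5′ end coincides with the CpG-free outer start printed above. The inner start, 9.38 kb further in, lay under peaks of 7 lists. Within 2 kb of it H3K4me3 peaks covered 1095 bp, H3K9ac 705 bp, H3K27ac 720 bp and H3K23ac 673 bp. H4K8ac covered 925 bp there, H3K18ac 592 bp and H3K14ac 802 bp, with no H2AK5ac. The H3K4me3 bases came from a peak at chr4:74251625-74252719, of which 254 bp lay upstream of the inner start and 841 bp downstream. The single H2AK5ac peak of Kdm4c, 129 bp wide, lay 113 kb from the 5′ end.

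**Figure D3:**
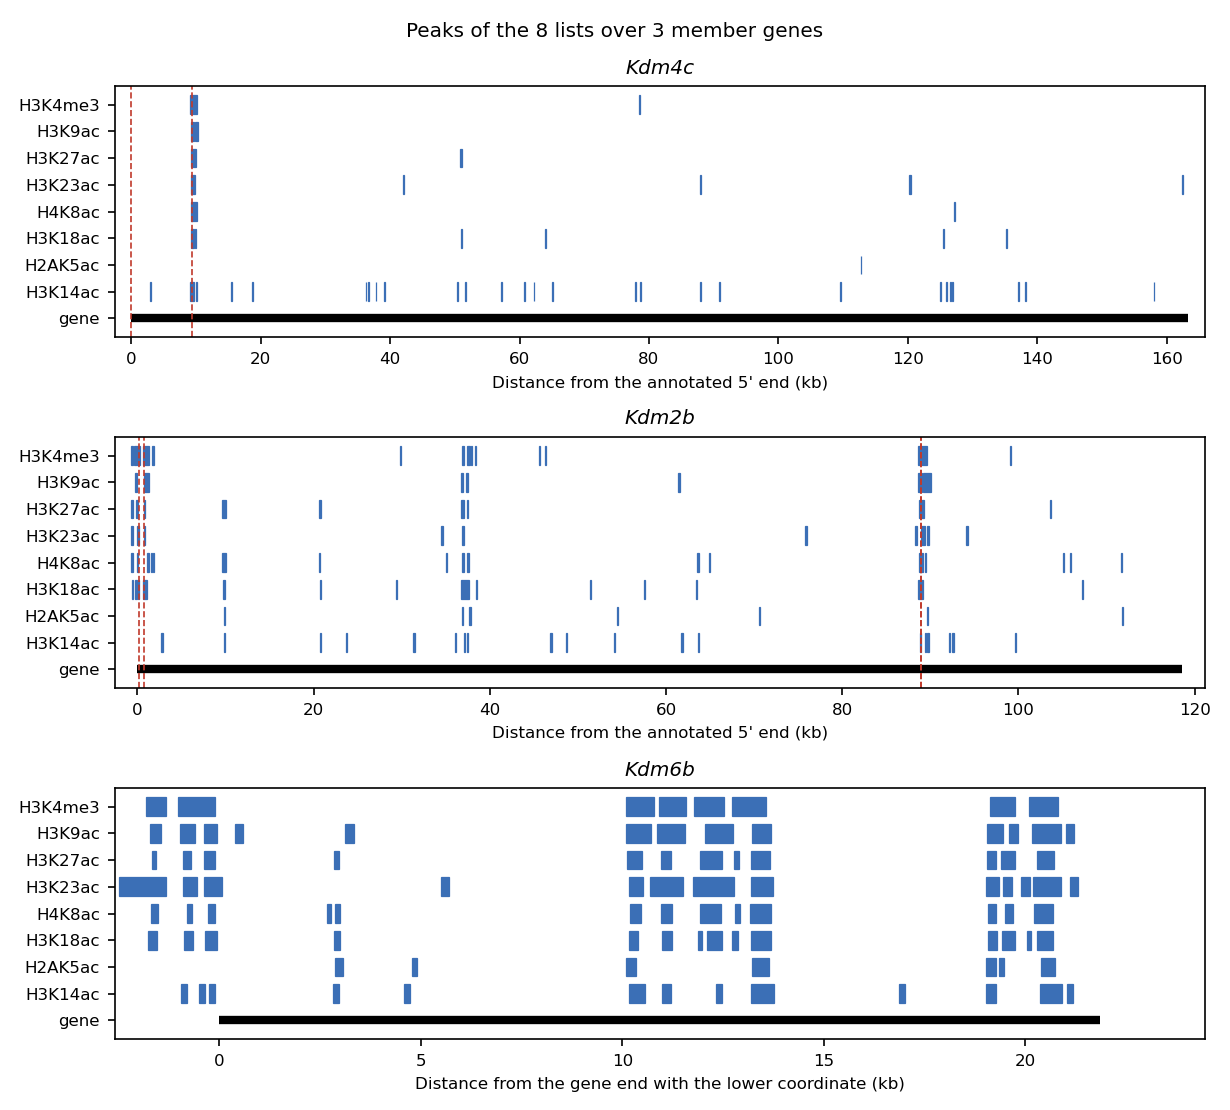
Blue boxes are peaks of 8 lists (rows) against distance in kb along Kdm4c, Kdm2b and Kdm6b, the black bar is the annotated gene, and dashed red lines are listed transcription starts. Kdm4c has 7 lists at its inner start 9.38 kb in and none at its outer start, Kdm2b has a further group of peaks at starts 88.9 kb in, and Kdm6b has peaks at its lower end, near its middle and inside its upper end, with smaller ones between.

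H3K27 methylation is written by the Polycomb enzymes Ezh1 and Ezh2, and both genes had all 8 lists. At Ezh2, the form of dividing cells, H3K4me3 covered 1488 bp, H3K9ac 1548 bp, H3K27ac 950 bp, H3K23ac 1600 bp, H4K8ac 1001 bp, H3K18ac 1050 bp, H2AK5ac 129 bp and H3K14ac 1343 bp. At Ezh1, the form that persists in resting cells, the values were 638 bp of H3K4me3, 372 bp of H3K9ac, 934 bp of H3K27ac, 629 bp of H3K23ac, 1162 bp of H4K8ac, 1098 bp of H3K18ac, 238 bp of H2AK5ac and 493 bp of H3K14ac. Summed over both ends, the paralogues thus stood in opposite orders in different lists. Ezh2 ranked 2475th for H3K4me3 and 887th for H3K9ac and Ezh1 10440th and 8633rd, whereas for H4K8ac Ezh1 ranked 1368th and Ezh2 2476th. Of the bases at Ezh1, 511 bp of H4K8ac and 374 bp of H3K27ac lay at its 3′ end beside Cntnap1. At the 5′ ends alone Ezh2 had more H4K8ac, 899 against 651 bp, and more H3K18ac, 1050 against 786 bp. H2AK5ac kept the opposite order there, with 129 bp at Ezh2 and 238 bp at Ezh1.

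H3K27 demethylation is the work of Kdm6a, or UTX, and Kdm6b, or JMJD3, which is induced in inflammation. Kdm6b had 2152 bp of H3K4me3, 2113 bp of H3K9ac, 1005 bp of H3K27ac and 2574 bp of H3K23ac peaks at its ends. H4K8ac peaks covered 959 bp, H3K18ac 1233 bp, H2AK5ac 330 bp and H3K14ac 1099 bp. Its H3K23ac coverage ranked 23rd of all genes. Peaks also lay inside this 21.9 kb gene on chromosome 11, mostly near its middle and inside its upper end. Over the gene with 2 kb either side, H3K4me3 peaks covered 5725 bp, or 22.1% of all bases, which ranked 95th of all genes. Kdm6b lies within 2 kb of Naa38 and Tmem88 at its lower end and of Dnah2 at its upper end, so peaks at its ends count for these genes too.

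Kdm6a on the X chromosome had 892 bp of H3K4me3, 767 bp of H3K9ac, 656 bp of H3K27ac and 837 bp of H3K23ac peaks. H4K8ac peaks covered 807 bp, H3K18ac 671 bp and H3K14ac 759 bp, with none of H2AK5ac. Its listed start lies 1.71 kb inside the annotated 5′ end, and around this start H3K4me3 coverage was 2031 bp. With a window of 1 kb at the annotated ends Kdm6a had 0 lists.

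H3K36 methyltransferases were the class with the second highest H3K4me3 median, 1823 bp over 4 genes, and all 4 had all 8 lists. Nsd3 had 2704 bp of H3K4me3, 2013 bp of H3K9ac, 1478 bp of H3K27ac and 2364 bp of H3K23ac peaks. H4K8ac peaks covered 1970 bp, H3K18ac 1576 bp, H2AK5ac 387 bp and H3K14ac 1670 bp. No other gene of the set had as many bases of H3K14ac. Nsd3 ranked 26th of all genes for H4K8ac, 51st for H3K23ac, 59th for H3K4me3 and 104th for H3K14ac. Its upper end, which is near Plpp5, held 853 of the H3K4me3 bases.

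Nsd1, the paralogue mutated in the overgrowth disorder Sotos syndrome, had less H3K4me3 at its ends, 977 bp, with 974 bp of H3K9ac, 1249 bp of H3K27ac, 894 bp of H3K23ac, 1197 bp of H4K8ac, 1650 bp of H3K18ac, 258 bp of H2AK5ac and 995 bp of H3K14ac. Its widest peaks began about 1 kb inside the gene and ran past the 2 kb window. The widest H3K27ac peak, 1682 bp at chr13:55210757-55212438, ranked 6th in width among the widest H3K27ac peaks of all genes, and the widest H3K23ac peak, 1976 bp at chr13:55211155-55213130, ranked 20th. The widest H3K4me3 peak of Nsd1 measured 2293 bp at chr13:55210805-55213097.

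Nsd2 and Setd2, the other H3K36 enzymes, had 2211 and 1435 bp of H3K4me3 peaks. Setd2 writes H3K36me3 with the elongating polymerase. Nsd2 held the widest H2AK5ac peak of the set, 428 bp at chr5:33818957-33819384, which ranked 595th in width over all genes. This peak began 1.72 kb outside the lower end of Nsd2, where Gm52782 is also within 2 kb.

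The H3K36 and H3K4 demethylases Kdm2a and Kdm2b carry CpG-binding zinc fingers. Kdm2a had all 8 lists with 1384 bp of H3K4me3, 1178 bp of H3K9ac, 1103 bp of H3K27ac, 1242 bp of H3K23ac, 1128 bp of H4K8ac, 999 bp of H3K18ac, 129 bp of H2AK5ac and 1031 bp of H3K14ac. Kdm2b had 1714 bp of H3K4me3, 729 bp of H3K9ac, 521 bp of H3K27ac, 698 bp of H3K23ac, 803 bp of H4K8ac and 788 bp of H3K18ac peaks at its ends, but 0 bp of H2AK5ac and H3K14ac. The outer and innermost starts printed above differed in this respect. Within 2 kb of the innermost start of Kdm2b all 8 lists were present, with 1050 bp of H3K4me3, 1393 bp of H3K9ac, 587 bp of H3K27ac, 903 bp of H3K23ac, 618 bp of H4K8ac, 555 bp of H3K18ac, 129 bp of H2AK5ac and 476 bp of H3K14ac peaks. Over the whole span of Kdm2b there were 13 H3K4me3, 18 H4K8ac and 19 H3K14ac peaks, between and beyond these starts.

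The H3K79 methyltransferase Dot1l, which acts with transcription elongation, had 1090 bp of H3K4me3, 1137 bp of H3K9ac and 1129 bp of H3K23ac peaks at its ends. H3K27ac covered 276 bp, H4K8ac 375 bp, H3K18ac 337 bp, H2AK5ac 152 bp and H3K14ac 276 bp. Inside the gene, which is much longer than these windows, H3K9ac peaks covered 1020 bp, H3K27ac 1509 bp, H3K23ac 2248 bp, H4K8ac 2205 bp, H3K18ac 2142 bp, H2AK5ac 1164 bp and H3K14ac 1543 bp.

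Among the H4K20 methyltransferases, Kmt5a writes the mono-methyl mark of the cell cycle and Kmt5b and Kmt5c extend it. Kmt5b had 1550 bp of H3K4me3, 1100 bp of H3K9ac, 655 bp of H3K27ac, 1186 bp of H3K23ac, 858 bp of H4K8ac, 769 bp of H3K18ac, 380 bp of H3K14ac and 0 bp of H2AK5ac peaks. Kmt5a had 914 bp of H3K4me3, 431 bp of H3K9ac, 912 bp of H3K27ac, 869 bp of H3K23ac, 951 bp of H4K8ac, 750 bp of H3K18ac, 367 bp of H2AK5ac and 450 bp of H3K14ac. Kmt5c had all 8 lists and 1519 bp of H3K4me3 peaks. The listed starts of Kmt5a differed by list. At its start 5.57 kb inside the gene, which holds 51 CpG, H3K4me3 peaks covered 1822 bp and H3K9ac peaks 1558 bp, against 914 and 431 bp at the outer start with 18 CpG. The outer start had more H3K27ac, 912 against 678 bp, and more H2AK5ac, 367 against 258 bp.

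The remaining genes have other or less settled substrates. Kdm7a and Kdm8 encode JmjC proteins outside the larger families. Kdm7a had 1939 bp of H3K4me3, 1538 bp of H3K9ac, 1229 bp of H3K27ac, 1667 bp of H3K23ac, 1180 bp of H4K8ac and 1605 bp of H3K18ac peaks, with 0 bp of H2AK5ac and 276 bp of H3K14ac. Its rank was 166th of all genes for H3K18ac and 13501st for H3K14ac, so the lists did not move together at this gene. Kdm8 had all 8 lists, with 1125 bp of H3K4me3, 618 bp of H3K9ac, 606 bp of H3K27ac, 453 bp of H3K23ac, 885 bp of H4K8ac, 807 bp of H3K18ac, 129 bp of H2AK5ac and 864 bp of H3K14ac.

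Setd5 had the highest H3K4me3 coverage of the set at its ends, 2926 bp, which ranked 25th of all genes. H3K9ac peaks covered 2689 bp, H3K27ac 1393 bp, H3K23ac 2442 bp, H4K8ac 2105 bp, H3K18ac 1585 bp, H2AK5ac 484 bp and H3K14ac 839 bp. Its H4K8ac coverage ranked 10th. A single H3K4me3 peak of 2769 bp at chr6:113075978-113078746 spanned the annotated 5′ end of Setd5 and ranked 10th in width among the widest H3K4me3 peaks of all genes. An H4K8ac peak of 1732 bp at chr6:113075988-113077719 ranked 2nd in its list. The listed start of Setd5 printed above lies 27.7 kb inside the gene and had none of this coverage, with 146 bp of H3K27ac and 150 bp of H4K8ac peaks upstream of it as the only bases within 2 kb.

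At the other extreme Setd6, which methylates a subunit of NF-kappaB, had 955 bp of H3K4me3, 408 bp of H3K9ac, 586 bp of H3K27ac, 206 bp of H3K23ac, 807 bp of H4K8ac, 104 bp of H3K18ac, 138 bp of H3K14ac and 0 bp of H2AK5ac peaks. It is the shortest gene of the set at 5.87 kb, and Ndrg4 and Cnot1 lie within 2 kb of its ends. Setd7, a mono-methyltransferase of H3K4 and of other proteins, had 1902 bp of H3K4me3 and 1676 bp of H3K27ac peaks. The latter ranked 89th of all genes, while Setd7 had no H2AK5ac peak at its ends or over its span. Setd3, an actin histidine methyltransferase, and Setd4 had all 8 lists.

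Peaks of the set lay at 5′ ends far more often than at 3′ ends. The strand is given by the listed starts for 32 genes of the set and 17274 genes in all. H3K4me3 peaks lay at the 5′ end of 31 of the 32 (59% of all genes) and at the 3′ end of 4 (16.6%). The 4 were Kdm4a, Setd1a, Kmt2d and Kmt5c, and the first 3 have a neighbouring gene at that end. H3K9ac peaks also lay at 31 of the 5′ ends (48.2%) and at 4 of the 3′ ends (13.6%). H3K27ac had 31 (59.4%) and 8 (22.8%), H3K23ac 31 (53.3%) and 7 (20.6%), and H3K18ac 31 (63.1%) and 9 (29.9%). At the 3′ ends these shares of the set were near those of all genes. H4K8ac peaks were the most frequent at 3′ ends, with 17 of 32 (35.2% of all genes), beside 31 at 5′ ends (62%). Most of the 17 had only the 102 bp of a minimum-width peak there, among them Kdm5c, Ezh2, Dot1l, Kmt5a and Setd6. The most covered, Kmt2d with 842 bp and Setd1a with 649 bp, have a neighbouring gene at that end. H3K14ac had 29 at 5′ ends (77.4%) and 10 at 3′ ends (51.9%), and H2AK5ac 20 (34.4%) and 3 (14.1%). Another protein-coding gene lay within 2 kb of an end in 26 of the 43 genes, and a peak in such a place counts for both genes.

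Around the outermost listed start, H3K4me3 peaks reached further into the gene than away from it. Of 30 genes with such a peak within 2 kb, 25 had more covered bases downstream (75.8% of all genes with a peak there), with medians of 472 bp upstream and 886 bp downstream. H3K9ac peaks had 20 of 30 (67.9%) and H3K23ac peaks 19 of 30 (66.5%). More bases lay downstream in 14 of 31 genes for H3K27ac (58.8%), 15 of 31 for H4K8ac (56%), 15 of 30 for H3K18ac (57.5%), 18 of 28 for H3K14ac (57.7%) and 8 of 19 for H2AK5ac (45.5%). In bins of 100 bp, H3K4me3 peaks covered 87.5% of the 32 genes in the bin centred 50 bp after the start, 71.9% at 550 bp after it and 40.6% at 550 bp before it. The shares of all genes in these bins were 50.8%, 34.7% and 11.4%. H3K27ac peaks covered 71.9% in the bin 50 bp before the start and 21.9% at 550 bp after it, against 46.7% and 12.6% of all genes.

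**Figure D4:**
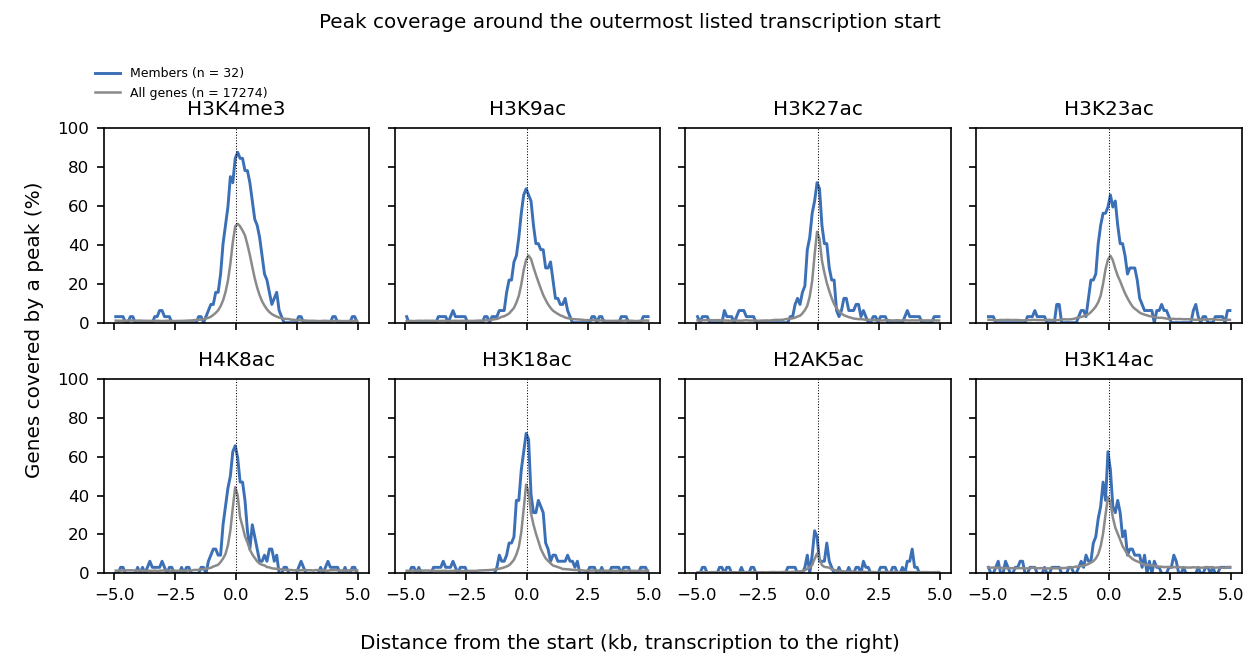
Lines give the percentage of genes covered by a peak in 100 bp bins against distance in kb from the outermost listed start, with transcription to the right, for 32 enzyme genes (blue) and 17274 genes (grey), 1 panel per list. The blue H3K4me3 line peaks at 87.5% just after the start and is wider downstream than upstream, and the H2AK5ac line reaches 21.9%.

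CpG content and H3K4me3 went together across the starts of the set. The 44 listed starts of 32 genes had a median of 28 CpG in 300 bases, against 13 over 21045 listed starts. All 31 starts with 20 or more CpG had an H3K4me3 peak within 2 kb (92.8% of all such starts), and all 9 with 10 to 19 did (80.9%). The only start with 5 to 9 CpG, the innermost one of Kmt5a, had a peak too (41.6%), and it lies 6.77 kb inside the gene, near the CpG-rich start at 5.57 kb. None of the 3 starts with 0 to 4 CpG had one (13.6%). These 3 are the outer start of Kdm4c, the innermost start of Kdm3a and the listed start of Setd5. Starts of 1 gene can share their peaks, so the 44 are not independent. Of the 44 starts of the set 31 had 20 or more CpG, against 7640 of all 21045. Below 20 CpG the set had few starts. Whether CpG number accounts for the share of the set with H3K4me3 was not tested.

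**Figure D5:**
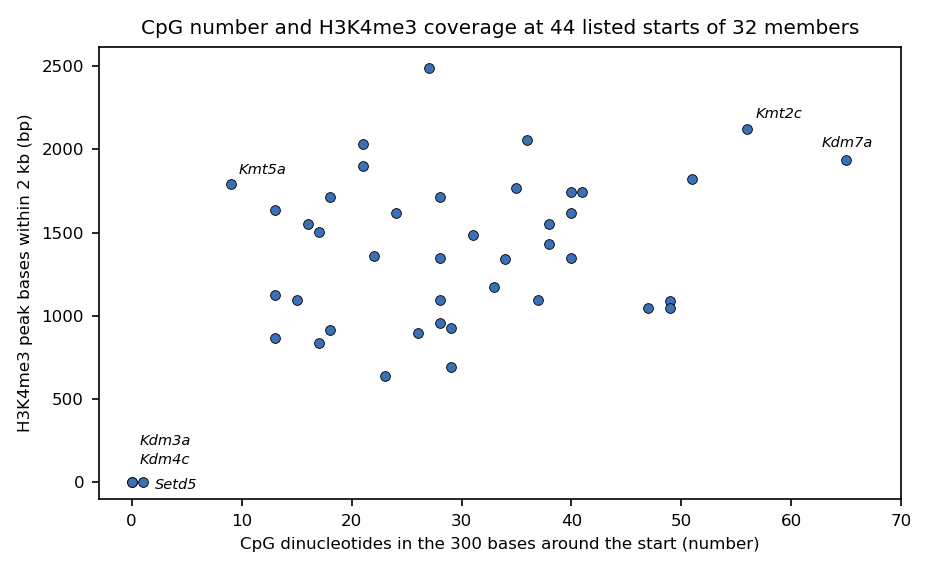
Each of 44 points is a listed start of 32 genes, with the CpG dinucleotides in the 300 bases around it on the x axis and the H3K4me3 peak bases within 2 kb on the y axis (bp). The 3 starts with 0 or 1 CpG, of Kdm3a, Kdm4c and Setd5, are at 0 bp, and every other start has peak bases.

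Short motifs were counted in the 32 outermost promoters on both strands, as a description of the letters in these windows. The SP and KLF motif GGGCGG was present in 21 promoters, or 65.6%, against 46.9% of 17274. The ETS motif CCGGAA was present in 8, or 25%, against 19.3%, and the NF-Y motif CCAAT in 12, or 37.5%, against 39.6%. The TATA motif TATAAA was in 0, against 13.4%. None of these motifs contains another. The promoters of Kdm7a and of the outer start of Kdm2b printed above are among the 8 with CCGGAA and the 21 with GGGCGG.

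H2AK5ac divided the set. Of the 40 genes with all 7 other lists, 29 had H2AK5ac, or 72.5%, and of the 9719 genes with these 7 lists (44.9% of all) 70% did. The share in the set was thus near the background. The 29 genes with H2AK5ac had medians of 1384 bp of H3K4me3, 942 bp of H3K27ac and 818 bp of H3K14ac peaks at their ends. In the 13 without it, leaving out Kdm4c, the medians were 1507 bp, 625 bp and 414 bp. The 13 include Kdm2b and Kdm5b, which also lacked H3K14ac and had 1714 and 1507 bp of H3K4me3. The 13 are therefore not matched to the all-gene values that follow, which require the other 7 lists. Over all genes with the other 7 lists, the medians with and without H2AK5ac were 1222 and 1052 bp for H3K4me3, 788 and 625 bp for H3K27ac, and 795 and 652 bp for H3K14ac. The 3 X-linked genes were Kdm5c with 8 lists and Kdm6a and Suv39h1 with 7. X-linked genes had a median of 2 lists over 966 genes, against 6 on the autosomes, and 28.7% of them had 7 or more.

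Inside the genes, more than 2 kb from both ends, the set also carried peaks, but its genes are long. The median length was 50.9 kb, against 17.3 kb over all genes. H3K4me3 body peaks were present in 31 of 43 genes (44.8% of the 17602 genes with a body), H3K9ac in 27 (36.8%), H3K27ac in 33 (55.1%) and H3K23ac in 34 (55.4%). H4K8ac body peaks were in 40 (66.8%), H3K18ac in 38 (63%), H2AK5ac in 25 (44%) and H3K14ac in 36 (78%). Per kb of body the picture differed between lists. H3K4me3 peaks covered 10.9 bp per kb in the set and 6.03 over all genes, and H3K23ac peaks 15.1 and 10.5. H3K27ac was even, at 11.9 and 12, and H3K14ac was lower in the set, at 18.8 and 38.4 bp per kb. Kdm6b had 200 bp of H3K4me3 peaks per kb of body and Kmt5a 99.1, the highest values of the set. Bodies counted in this way include listed starts that lie more than 2 kb inside a gene. The 1822 bp of body H3K4me3 at Kmt5a lay within 2 kb of its start 5.57 kb inside. At Kdm4c 1095 of 1252 bp lay at the inner start. The part of such starts in the values per kb was not tested.

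Read counts can be assigned to a place only where an identifier holds 1 region, and those regions belong to the H3K14ac list. Such regions were found over the span, with 2 kb either side, of 32 of the 43 genes and of 13359 of all genes. A gene was called for a mark at 2-fold or more over IgG in CPM, which divides reads by the sum of the library in the table, with at least 10 reads. H3K14ac was called in 26 of the 32 (87.1% of all genes with such regions), H3K27ac in 20 (49.1%) and H3K4me3 in 11 (18.5%). H3K18ac was called in 7 (19.4%), H4K8ac in 5 (16%), H3K9ac and H3K23ac in 4 each (3.97% and 6.69%) and H2AK5ac in 2 (3.62%). IgG had 0 reads in these regions of all 32 genes. The 3 reads that a count of 0 allows equal 8.2 CPM and serve below as the IgG floor. These calls rest on a prior count of 2 reads, scaled to library size and added to both libraries, and with IgG set at its floor instead fewer reached 2-fold. That number was 7 genes for H3K4me3 (8.49% of all genes with such regions), 3 for H3K9ac (1.78%), 3 for H3K27ac (17.8%) and 4 for H3K14ac (25.3%). It was 2 for H4K8ac (5.85%), 2 for H3K18ac (8.76%), 1 for H3K23ac (0.906%) and 1 for H2AK5ac (1.21%). The 3 genes for H3K27ac were Ehmt1, Kdm4b and Nsd3, and the 4 for H3K14ac were Ehmt1, Kdm4b, Kdm4c and Kmt2c. Intervals below are exact 95% Poisson intervals of the read number and cover counting error only.

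Setd1b was the only gene of the set called for all 8 marks, and its H4K8ac call depended on a region at the edge of the window. Setd1b had 76 H3K4me3 reads (59.9 to 95.1), 269 H3K9ac reads (238 to 303), 138 H3K23ac reads (116 to 163) and 70 H2AK5ac reads (54.6 to 88.4). H3K27ac had 41 reads there, H4K8ac 31, H3K18ac 27 and H3K14ac 121. In CPM, H3K9ac was 20.2-fold and H3K4me3 6.28-fold higher than IgG set at its floor. The ratios were 3.5-fold for H3K23ac, 2.16-fold for H4K8ac, 2.13-fold for H3K18ac and 2.03-fold for H2AK5ac. For H3K27ac and H3K14ac they were 1.97-fold and 1.47-fold, below the 2-fold of the call. These ratios leave out the counting error of the mark, and the exact interval of 0 reads ends at 3.69 reads. They are therefore not lower bounds. Among these placeable reads, H3K9ac and H2AK5ac lay in different regions, though peaks of the 2 lists overlapped inside Setd1b. Its widest H2AK5ac peak, 261 bp at chr5:123149648-123149908, overlapped its widest H3K9ac peak at chr5:123149672-123150620. Reads in bases shared by regions of different identifiers were not counted, so the reads do not show the marks apart. Of the H3K9ac reads, 167 lay in a region at chr5:123139922-123140059 that straddles the edge of the window beyond the lower gene end and 102 in a region 2.5 kb inside the gene, while all 70 H2AK5ac reads lay at chr5:123149486-123149640, 7.45 kb inside, where H3K9ac had 0. The regions with H3K9ac also held reads of H3K4me3 (46 and 22) and H3K23ac (84 and 54). The region at the window edge, beyond the gene end that has Rhof within 2 kb, held 23 of the 31 H4K8ac reads. The rest lay in regions with 6 and 2 reads, short of the 10 reads of a call.

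Nsd2 and Nsd3 encode H3K36 methyltransferases. Nsd2 had 106 H3K9ac reads (86.8 to 128), all of them in a region 0.11 kb inside its lower end that also held 48 H3K4me3 and 42 H3K23ac reads. Nsd3 had 79 H3K4me3 reads (62.5 to 98.5), 75 of them in a region 1.68 kb inside. Its placeable regions held no H3K9ac read, though H3K9ac peaks covered 2013 bp at its ends. Of the H3K4me3 reads of Kmt2d, 55 of 55 lay in a region 36.8 kb from its lower end.

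Kdm4b and Kdm4c, long genes with 28 and 26 placeable regions, had the most H3K14ac reads, 568 (522 to 617) and 449 (408 to 493). Kdm4b also had the most H3K27ac reads of the set, 163 (139 to 190), 7.85-fold higher than IgG set at its floor, and 28 H3K18ac reads. Kmt2c was next for H3K14ac with 382. Kdm2a had 66 H3K4me3 and 33 H4K8ac reads and Setd7 had 49 H3K9ac reads. Kdm8 had 14 H2AK5ac reads, all at a region 6.09 kb inside the gene. By contrast, Ehmt2 had 5 placeable regions with 690 unshared bases and 0 reads in every library, which at this depth does not show that marks were absent. Placeable regions were not found at Dot1l, Ezh1, Kdm1b, Kdm5a, Kdm5b, Kdm6b, Kmt5c, Nsd1, Setd3, Setd6 and Suv39h1.

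IgG reads were also rare under the identifiers of the peaks themselves. Of 769 peaks at the ends of the set, 765 belonged to identifiers with 0 IgG reads. The other 4 were an H3K4me3 peak of Kmt2a with 1 read and 3 H3K18ac peaks of Kmt5b with 1, 1 and 3 reads, each of which may belong to another region of the same identifier.

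Partners of these enzymes were also marked, though not in every case. Of 11 partners of Ezh1 and Ezh2 in Polycomb repressive complexes, 8 had all 8 lists, among them the core subunits Eed and Suz12. Epop had 4 lists and Ezhip 1. Of 15 COMPASS partners of the KMT2 and SET1 enzymes 6 had all 8 lists, Wdr5 among them, while Ash2l had 5 and Dpy30 had 2. Of 13 partners of LSD1, 6 had all 8, including the corepressor Rcor1, while the blood factors Gfi1 and Gfi1b had 4 and 1. Of 29 methylation enzymes outside the naming rule, 16 had all 8, including the H3K36 enzyme Ash1l, and Prdm16, Smyd1 and Prmt8 had 3, 4 and 2. The share with all 8 over all genes was 31.5%, and the medians of covered H3K4me3 bases were 1224, 1432, 1571 and 1183 bp in these 4 lists, against 1392 bp in the set and 564 bp over all genes.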

How the data were processed

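Lung endothelial cells of wild-type mice were profiled for 8 histone marks and IgG, 1 library each. The authors deposited 1 table of read counts, made per the file headers with featureCounts 2.0.6 with the paired-end option, without counting pairs as fragments, without strand and without counting reads in several regions, so reads in overlapping regions of different identifiers were lost. The submitters' processing notes name Trim Galore, STAR, MACS2 and the builds mm10 and GRCm38.p6. Peak calling settings and duplicate handling are not stated in those notes or labels.

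The 578465 identifiers hold 1309635 regions of 8 joined peak lists, which were separated by genome order, width and spacing, and 0 identifiers remained out of order. The separation was tested on simulated lists drawn independently of each other and spaced more widely than the data. Lists that gather at the same places, as the real ones do, were not simulated. Peaks of a list are called by its densest library. Starts were read as counted from 0 and are printed from 1.

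Genes and listed starts came from RefSeq tables of GRCm38.p6. Peak bases within 2 kb of both annotated ends were summed, and a list counted from 1 base. Promoter entries gave the strand. The files used here hold no exons, introns or UTRs, so none are annotated. Placeable reads are those of identifiers with 1 region and unshared bases, and folds over IgG used a prior count of 2 in a library of average size. Nearly none lie on chromosomes 1 and 10 to 13.

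The members and gene lists were chosen with earlier results of these data known. Genes were named in full by a rule: the most and least covered of each enzyme class over the 8 lists, those with 4 lists or fewer, those with the widest peak of a list and the 3 with the most placeable reads of each mark. Other genes, and the starts and promoters shown, were picked after their values were seen. Alternatives changed the window, peak width, overlap, feature, splitting, read minimum and fold. Windows at any listed start and genes without neighbours were added after seeing the data. Python 3.11.15, numpy 2.4.6, scipy 1.17.1 and pandas 2.3.3 were used.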

Additional observations from a re-analysis of the deposited data

How the results depend on the processing

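Of 114 summary values under the alternatives, 98 stayed within 1.5-fold of the value reported and 16 moved further. All 8 lists were present at 67.4% of the set in the report, at 44.2% with 1 kb windows (26.1% of all genes), at 23.3% with peaks wider than the minimum alone (10.1%) and at 39.5% with at least 200 covered bases (17%). H2AK5ac peaks, also at 67.4%, were at 30.2% with wider peaks alone (12.8% of all genes) and at 39.5% with at least 200 bases (19.6%). With at least 20 placeable reads, 12 genes were called for H3K27ac, 3 for H4K8ac, 2 for H3K18ac and 1 for H2AK5ac. With IgG taken as at least 3 reads, a setting chosen after seeing the data, 7 genes were called for H3K4me3, 3 for H3K27ac, 1 for H3K23ac, 2 for H4K8ac, 2 for H3K18ac, 1 for H2AK5ac and 4 for H3K14ac. These 5 settings use narrower windows or stricter limits by construction. Of 339 list numbers of single genes 10 moved. Kdm6a had 0 lists with 1 kb windows, Setd1b 4 and Setd6 3 with wider peaks alone, and Setd5 2 at its listed start. Kdm4c had 0 at its 5′ end, 2 with 5 kb windows, 7 at any listed start and 8 over its span. Placeable reads lie in the H3K14ac list alone, and IgG, with 365999 reads, was the shallowest library. No paired analysis was possible because each mark has 1 library.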
